A study of Homo sapiens with 8 samples.

Results

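Whole mitotic cells labelled as STAU1 knockout were compared with wild-type cells of the same line by RNA sequencing. The cells were HCT116, an established human colorectal carcinoma line of epithelial origin. Wild-type (WT) cells and a CRISPR-derived STAU1 knockout line (STAU1-KO) each gave 2 whole-cell RNA libraries, called input. Both genotypes had the same treatment: the CDK1 inhibitor RO-3306 for 16 h, release into 100 µM taxol for 15 min, and shake-off of the mitotic cells. The other 4 of the 8 libraries, 2 per genotype, held RNA of spindle preparations from cells treated in the same way. The series describes the replicates as biological. The growth protocol speaks of clones in the plural, while all STAU1-KO libraries carry the same code in the tables, which may stand for 1 clone. Loss of STAU1 and a property of the clone or clones used cannot be told apart. The libraries were made from total RNA after removal of ribosomal RNA, so noncoding RNAs were measured beside messenger RNAs. Levels are given in FPKM, which is reads per kilobase of transcript scaled to library size, and differences on the scale of log2(FPKM + 1), which understates changes of genes with low levels. A gene was included if it had at least 1 FPKM in at least 2 of the 4 input libraries and did not lie on chromosome Y. This rule kept 14196 of the 17788 genes listed by the authors, of which 10979 code for protein. Of these, 265 reached 1 FPKM in the STAU1-KO libraries alone and 192 in the WT libraries alone, and such genes had to differ to be included.

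Staufen1, the product of STAU1, is a protein that binds double-stranded RNA. It is known for moving and translating messenger RNAs and for a decay pathway in which it recruits the helicase UPF1 to structures in the 3′ untranslated region. It has also been found on the mitotic spindle of human cells. Epithelial cells of the colon are held together by tight junctions, adherens junctions and desmosomes, and their identity is maintained by transcription factors such as GRHL2, ELF3 and OVOL1. ZEB1 is a repressor of epithelial genes that binds the E-box letters CACCTG.

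The input libraries held 9.07 M and 10.0 M reads on listed genes in WT and 12.8 M and 14.6 M in STAU1-KO, so that the knockout was sequenced more deeply. Across genes, replicates correlated with r = 0.976 in WT and 0.985 in STAU1-KO, a description over genes that are not independent. Of 10 markers of colorectal epithelium, 9 were listed and all 9 were above 1 FPKM. Their summed level was 1554 and 1616 FPKM in WT and 1190 and 1136 FPKM in STAU1-KO. Of 25 markers of blood, vessel, stromal, muscle, liver, neural and other cells, COL1A1 was the 1 listed, and it stayed below 1 FPKM in every input library.

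The targeted gene was read first. STAU1 (ENSG00000124214, chromosome 20) had 31.9 and 28.5 FPKM in the WT input libraries and 4.59 and 4.88 FPKM in the STAU1-KO input libraries. Both knockout values lay far below both WT values, and RNA of the gene was still present. The difference was -2.44 (SE 0.08, limma adjusted p = 0.0121), and the authors' deposited table gives an adjusted p of 1.77e-32. In the spindle libraries the separation was smaller, with 11.5 and 16.2 FPKM in WT and 9.83 FPKM in both STAU1-KO libraries. STAU2, the paralog that binds double-stranded RNA in the same way, had 3.18 and 3.38 FPKM in WT and 4.02 and 4.21 FPKM in STAU1-KO. The groups did not overlap, but the difference of 0.26 did not pass the test (limma adjusted p = 0.139).

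None of the 10 nearest tested coding neighbours of STAU1 was called, in the gene order of RefSeq. SULF2 had the largest difference among them (0.44, limma adjusted p = 0.118). The genes that flank STAU1, CSE1L and DDX27, differed by -0.10 and -0.06. Among 17 tested genes of the Staufen and nonsense-mediated decay machinery, STAU1 was the 1 called. UPF3B, a subunit of the decay complex, had 8.21 and 7.58 FPKM in WT and 12.4 and 11.3 FPKM in STAU1-KO (0.52, limma adjusted p = 0.0650). DROSHA, the nuclease that starts microRNA processing, was the 1 called of 16 tested genes for other double-stranded RNA-binding proteins, where 1.2% of all genes were called. It rose from 7.70 and 7.35 FPKM to 12.5 and 11.7 FPKM (0.62, SE 0.06, limma adjusted p = 0.0401).

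Across all genes tested, limma called 171 genes at an adjusted p under 0.05, which is 1.2% of them. Of these, 73 were higher in STAU1-KO (0.514%) and 98 lower (0.69%). At least 2-fold on the log2 scale were 24 of the higher and 37 of the lower genes. Protein-coding genes made up 138 of the calls, 53 higher and 85 lower. The adjusted p-values of the calls ran from 0.0121 to 0.0498, close to the threshold, and 3507 genes (24.7%) had an unadjusted p under 0.05. The count depended on the libraries: it fell to 7 without WT replicate 1, to 31 without WT replicate 2, and to 0 without either STAU1-KO replicate, where limma still gave 1480 and 1479 genes an unadjusted p under 0.05. It was 2 with the replicate number as a block. With the sums of coding genes set equal the split turned to 132 higher and 74 lower. With limma-voom, a test on the reads recovered from the FPKM values, 1661 genes were higher (11.7%) and 742 lower (5.23%), and 154 of the 171 calls were among them. The median difference over all genes was 0.06 with limma-voom and -0.01 with limma, so that the limma-voom counts of any list lean toward higher genes.

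**Figure D1:**
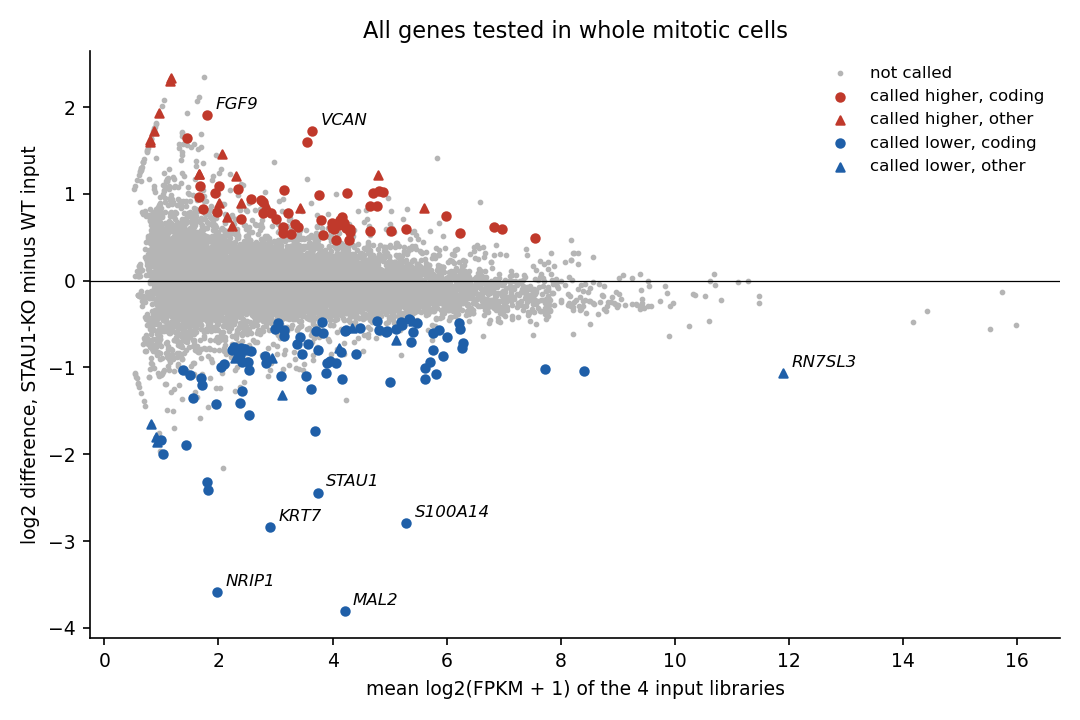
Log2 difference between STAU1-KO and WT input (vertical axis) against the mean log2(FPKM + 1) of the 4 input libraries (horizontal axis) for 14196 genes. The 73 genes called higher are red and the 98 called lower are blue, with circles for coding genes and triangles for others; the lowest point is MAL2 at -3.81 and the highest called coding gene is FGF9 at 1.90.

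The authors' deposited table, fitted over all 8 libraries, gives an adjusted p under 0.05 to 85 higher genes (0.599%) and 91 lower genes (0.641%) of those tested here. Both sources called 87 genes, 39 higher and 48 lower, and none in opposite directions. These 87 are 50.9% of the limma calls and 49.4% of the authors' calls. Both sources use the same libraries, so their overlap is not independent.

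Genes of epithelial identity and cell junctions made up the list with the most called members that were lower. Of 49 tested members, 12 fell and none rose, against a background of 0.69% lower and 0.514% higher. In RNA of many cells, fewer cells with an RNA and less of it per cell cannot be told apart. The median difference over the members was -0.28, where that of all coding genes was -0.02. In 37 of the 49 both STAU1-KO libraries lay below both WT libraries and in 3 above, where all genes gave 31.3% and 26.7%. Those that fell included MAL2, S100A14, GRHL2, AP1M2, ELF3, CLDN7, ST14, RAB25, PKP3, LLGL2 and JUP. The authors' deposited table calls 8 of the 12 lower, and also CDH1 and OVOL1, and calls TJP3 higher. With limma-voom, 23 of the 49 were lower and 2 higher, against 5.23% and 11.7% of all genes. Of the 49, 1 was under 1 FPKM in both STAU1-KO libraries and entered through WT alone. With 1 library left out, the count of 12 was 2 and 3 without WT replicate 1 or 2 and 0 without either STAU1-KO replicate.

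MAL2, a membrane protein of transport to the apical surface, had 59.6 and 78.5 FPKM in the WT libraries and 3.76 and 4.17 FPKM in the STAU1-KO libraries. S100A14, a calcium-binding protein of epithelia, had 92.5 and 113 FPKM in WT and 13.3 and 14.4 FPKM in STAU1-KO. These were the lowest log2 differences of the list, -3.81 and -2.80 (SE 0.15 and 0.11, limma adjusted p = 0.0137 and 0.0141). GRHL2, a transcription factor that activates junction genes, had 8.92 and 9.07 FPKM in WT and 2.61 and 2.22 FPKM in STAU1-KO. ELF3, an epithelial factor of the ETS family, had 14.9 and 17.4 FPKM in WT and 6.96 and 6.93 FPKM in STAU1-KO. In both factors the replicates lay close together and the groups stood apart, with differences of -1.55 and -1.10 (limma adjusted p = 0.0316 for each).

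Other called members of the list encode proteins of varied roles. AP1M2, the epithelial subunit of an adaptor that sorts cargo to the basolateral membrane, went from 44.4 and 49.9 FPKM to 20.7 and 20.0 FPKM (-1.17, SE 0.08). RAB25, a GTPase of recycling endosomes in epithelia, went from 36.2 and 36.8 FPKM to 24.0 and 23.9 FPKM (-0.59, limma adjusted p = 0.0349), and LLGL2, a basolateral polarity protein, from 22.5 and 21.5 FPKM to 14.8 and 14.1 FPKM (-0.57). The replicates of both RAB25 and LLGL2 differed by far less than the genotypes did. Junction members included CLDN7, a tight junction claudin, with 68.1 and 75.7 FPKM in WT and 39.4 and 34.8 FPKM in STAU1-KO (-0.94, limma adjusted p = 0.0381). PKP3 and JUP, plaque proteins of desmosomes, had differences of -0.58 and -0.54. ST14, the membrane protease matriptase, had 68.2 and 74.0 FPKM in WT and 42.1 and 38.6 FPKM in STAU1-KO. With coding sums set equal, CLDN7, ST14 and JUP no longer passed (limma adjusted p = 0.0514, 0.0514 and 0.0682). CDH1, which encodes E-cadherin, had 11.7 and 15.6 FPKM in WT and 6.06 and 6.40 FPKM in STAU1-KO. Its groups did not overlap, the difference was -1.01, and it did not pass the test here (limma adjusted p = 0.0618), while the authors' deposited table gives an adjusted p of 0.00196.

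The promoters of these genes were read for the letters CACCTG, which ZEB1, described further on, is known to bind. The motif was chosen with the values of these genes known. Whether ZEB1 acts at these promoters was not tested. RefSeq sequences (build GRCh38.p14, 250 bases before to 50 after each start) were found for 6 of the 12 lower genes, at 8 starts. The letters CACCTG, read on both strands and so also as CAGGTG, occurred at least once in 6 of these 8 promoters (75.0%). They occurred in 20 of 43 promoters (46.5%) of the epithelial list and in 18.6% of the promoters of the coding genes tested. A match is a description of these letters only. The promoters of CLDN7 at the downstream of its 2 starts, of AP1M2, of RAB25 and of S100A14 are printed 5′ to 3′ along the gene, with each match in capitals.
CLDN7, chr17:7262429-7262728, minus strand: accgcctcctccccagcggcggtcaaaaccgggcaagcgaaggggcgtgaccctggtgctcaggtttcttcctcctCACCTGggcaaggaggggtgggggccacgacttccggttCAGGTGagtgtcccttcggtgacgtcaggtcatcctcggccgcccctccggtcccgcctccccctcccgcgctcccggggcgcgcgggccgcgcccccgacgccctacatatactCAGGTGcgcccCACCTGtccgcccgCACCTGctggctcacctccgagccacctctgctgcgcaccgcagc
AP1M2, chr19:10587263-10587562, minus strand: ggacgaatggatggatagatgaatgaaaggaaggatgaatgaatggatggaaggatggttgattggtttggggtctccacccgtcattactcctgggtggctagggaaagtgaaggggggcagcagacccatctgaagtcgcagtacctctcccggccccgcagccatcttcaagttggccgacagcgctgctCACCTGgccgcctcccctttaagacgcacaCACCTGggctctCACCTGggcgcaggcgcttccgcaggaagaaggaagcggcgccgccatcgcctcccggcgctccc
RAB25, chr1:156060910-156061209, plus strand: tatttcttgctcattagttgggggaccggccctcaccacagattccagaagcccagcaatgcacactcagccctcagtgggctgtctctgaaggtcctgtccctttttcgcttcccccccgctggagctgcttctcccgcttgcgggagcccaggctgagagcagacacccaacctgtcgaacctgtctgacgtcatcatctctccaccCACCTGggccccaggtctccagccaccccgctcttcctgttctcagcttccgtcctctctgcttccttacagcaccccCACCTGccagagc
S100A14, chr1:153616276-153616575, minus strand: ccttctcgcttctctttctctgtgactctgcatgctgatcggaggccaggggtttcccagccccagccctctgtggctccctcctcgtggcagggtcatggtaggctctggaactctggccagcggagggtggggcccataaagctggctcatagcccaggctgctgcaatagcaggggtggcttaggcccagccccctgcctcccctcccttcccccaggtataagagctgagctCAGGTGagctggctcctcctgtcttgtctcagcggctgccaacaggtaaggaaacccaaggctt
CLDN7 held 5 matches, AP1M2 held 3, RAB25 held 2 and S100A14 held 1. The promoter at the other start of CLDN7 held none.

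Keratins, the intermediate filaments of epithelia, were lower in STAU1-KO in every one of the 8 tested members, with no overlap between groups, and 2 of the 8 passed the test. Of all genes, 31.3% lay lower without overlap and 0.69% were called lower. KRT80 was under 1 FPKM in both STAU1-KO libraries, entered through WT alone and so had to lie lower in STAU1-KO. With limma-voom, 6 of the 8 were lower and none higher, against 5.23% and 11.7% of all genes. The median difference was -0.55. KRT7, a keratin of simple epithelia, had 15.9 and 23.0 FPKM in WT and 1.75 and 1.87 FPKM in STAU1-KO (-2.84, limma adjusted p = 0.0316). KRT23 had 6.93 and 7.97 FPKM in WT and 1.92 and 2.45 FPKM in STAU1-KO (-1.41, limma adjusted p = 0.0319). The abundant keratins KRT8, KRT18 and KRT19 kept at least 233 FPKM in all 4 libraries, with differences of -0.50, -0.61 and -0.28 that did not pass the test.

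Beyond the epithelial list, the largest falls included genes of signalling and metabolism. NRIP1, a corepressor of nuclear receptors, had 11.5 and 13.9 FPKM in WT and 0.154 and 0.126 FPKM in STAU1-KO, and its difference of -3.59 (SE 0.11, limma adjusted p = 0.0121) was second to that of MAL2. SYK, a cytoplasmic tyrosine kinase, had 2.64 and 2.87 FPKM in WT and 0.0439 and 0.0511 FPKM in STAU1-KO. Both were thus close to absent in the knockout libraries while present in both WT libraries. DPYSL3, a cytoskeletal regulator, had 7.85 and 6.44 FPKM in WT and 0.660 and 0.399 FPKM in STAU1-KO. GALNT3, an enzyme that starts O-glycan chains on mucins, had 3.99 and 4.35 FPKM in WT and 0.293 and 0.497 FPKM in STAU1-KO. ANXA10, an annexin, had 3.57 and 2.62 FPKM in WT and 0.0421 FPKM in STAU1-KO replicate 1, and is listed at 0 in replicate 2. NRIP1, SYK, DPYSL3, GALNT3 and ANXA10 were all under 1 FPKM in STAU1-KO and so entered through the WT libraries. With a pseudocount of 0.1, SYK and ANXA10 no longer passed (limma adjusted p = 0.0668 and 0.0683).

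Of 34 nuclear receptors and coregulators, NRIP1 and PPARG fell and none rose by limma, and the median was -0.02. By limma, 0.69% of all genes fell and 0.514% rose. With limma-voom, 7 of the 34 were higher and 5 lower, against 11.7% and 5.23% of all genes. PPARG, a nuclear receptor of lipid metabolism, had 10.8 and 12.2 FPKM in WT and 4.94 and 4.69 FPKM in STAU1-KO (-1.10, limma adjusted p = 0.0316). ID2, which blocks basic helix-loop-helix factors and responds to bone morphogenetic proteins, was the 1 called of 17 genes of that pathway, with 24.8 and 20.6 FPKM in WT and 6.26 and 6.004 FPKM in STAU1-KO (-1.73). The chemokine and cytokine list had 1 call of 18, IL18, which went from 20.3 and 24.1 FPKM to 10.3 and 11.7 FPKM (-0.95, limma adjusted p = 0.0474). IL18 did not pass with equal upper quartiles, equal coding sums or a pseudocount of 0.1 (limma adjusted p = 0.0525, 0.0682 and 0.0522). With limma-voom, the list of ID2 had 2 genes higher and 4 lower, and that of IL18 had 3 and 3. In the list of IL18, TRAF1 entered through STAU1-KO alone and IL32 through WT alone.

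Adjacent genes on chromosome 7 fell together. CAV1 and CAV2, the structural proteins of caveolae, lie beside MET, the receptor of hepatocyte growth factor. CAV1 had 69.2 and 73.9 FPKM in WT and 31.1 and 33.1 FPKM in STAU1-KO. CAV2 had 18.9 and 20.9 FPKM in WT and 9.60 and 9.93 FPKM in STAU1-KO. MET had 85.6 and 88.4 FPKM in WT and 60.4 and 62.7 FPKM in STAU1-KO, a smaller step than in CAV1 and CAV2. The differences were -1.13, -0.95 and -0.49 (limma adjusted p = 0.0316, 0.0316 and 0.0492), and MET did not pass with equal upper quartiles, equal coding sums or a pseudocount of 0.1 (0.0536, 0.0724 and 0.0522). CAV1 and CAV2 were chosen after their values were seen, as were CCT3 and NUDC. CCT3, a subunit of the cytosolic chaperonin, was among the most abundant of the lower genes, with 309 and 294 FPKM in WT and 150 and 147 FPKM in STAU1-KO (-1.02). NUDC, which acts with dynein in mitosis, had 82.7 and 78.3 FPKM in WT and 37.7 and 37.4 FPKM in STAU1-KO (-1.08). The authors' deposited table calls neither CCT3 nor NUDC (adjusted p = 0.211 and 0.177).

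Genes that rose included secreted ligands, matrix components and signalling kinases. FGF9, a fibroblast growth factor, had 0.941 and 0.668 FPKM in WT and 6.07 and 5.41 FPKM in STAU1-KO. VCAN, a large matrix proteoglycan, had 6.93 and 4.99 FPKM in WT and 22.1 and 21.5 FPKM in STAU1-KO. PRKAA2, a catalytic subunit of the energy sensor AMPK, had 0.494 and 0.605 FPKM in WT and 3.60 and 4.06 FPKM in STAU1-KO. The differences were 1.90, 1.72 and 1.64 (SE 0.12, 0.15 and 0.12, limma adjusted p = 0.0316 for each), and FGF9 and PRKAA2, under 1 FPKM in WT, entered through the STAU1-KO libraries. TNIK, a kinase that acts with TCF4 on Wnt target genes, had 5.69 and 5.84 FPKM in WT and 19.4 FPKM in both STAU1-KO libraries. Its replicates were nearly equal, and its difference of 1.59 (SE 0.06) had the lowest adjusted p of the higher genes (limma, 0.0121).

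The remaining leading higher genes lay between 1.02 and 1.09 on the log2 scale. ETV1, a transcription factor of the ETS family, and PDGFC, a ligand of platelet-derived growth factor receptors, differed by 1.09 each. ANKH, a transporter of pyrophosphate, differed by 1.05, SEMA3C, a secreted semaphorin, by 1.04, DUSP6 by 1.03 and NT5E by 1.02. NT5E encodes the surface enzyme CD73, which makes adenosine, and had 18.6 and 21.0 FPKM in WT and 40.2 and 42.4 FPKM in STAU1-KO. Leading genes were picked only where the libraries of the genotypes did not overlap, so that the separation in all of these follows from the rule. Of all genes, 26.7% lay higher without overlap.

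**Figure D2:**
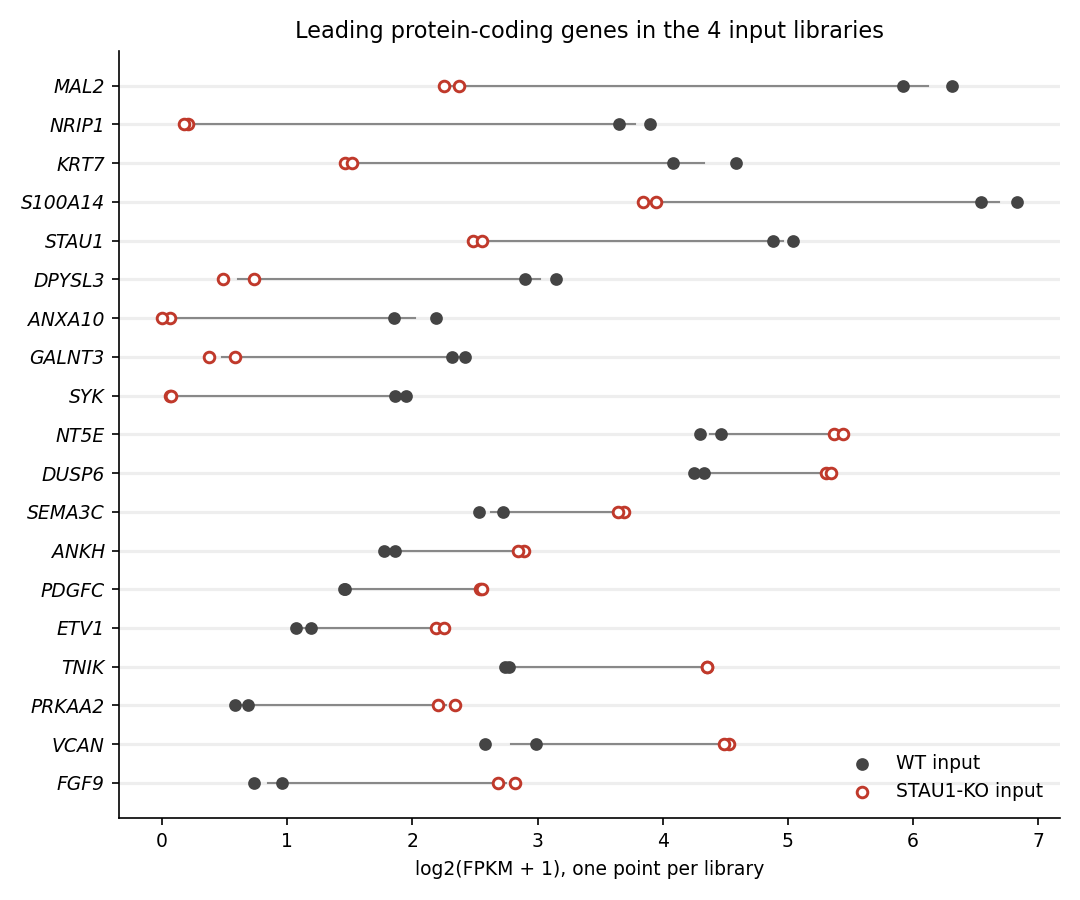
Level of 9 of the 10 called coding genes with the largest fall and the 10 with the largest rise, as log2(FPKM + 1) in each of the 4 input libraries, with filled points for WT, open points for STAU1-KO and a line between the group means. The genes were picked among those whose libraries do not overlap between genotypes. MAL2, with 59.6 and 78.5 FPKM in WT and 3.76 and 4.17 FPKM in STAU1-KO, is at the top.

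Of 23 tested genes of the mesenchymal state, NT5E and VCAN rose and none fell, where 0.514% of all genes rose. In 13 of the 23 both STAU1-KO libraries lay above both WT libraries and in 4 below, where all genes gave 26.7% and 31.3%. With limma-voom, 12 of the 23 were higher and none lower, where 11.7% of all genes were higher. The median was 0.21, and 0.11 without STAU1-KO replicate 1. These counts include 3 members, TWIST1, VIM and ZEB1, that were under 1 FPKM in both WT libraries, entered through STAU1-KO alone and so had to be higher there. VIM, the mesenchymal intermediate filament, had 0.233 and 0.0814 FPKM in WT and 2.10 and 2.02 FPKM in STAU1-KO. ZEB1 had 0.526 and 0.496 FPKM in WT and 2.28 and 2.03 FPKM in STAU1-KO. Both were far below the level of KRT8 or KRT18 in every library, and their differences of 1.41 and 1.06 did not pass here (limma adjusted p = 0.0523 and 0.0591). The authors' deposited table calls VIM and ZEB1 higher (adjusted p = 3.87e-10 and 1.52e-07). At the other end of the list, SNAI1 had the lowest difference (-0.39, limma adjusted p = 0.258). It had 7.33 and 5.09 FPKM in WT and 4.03 and 4.85 FPKM in STAU1-KO, and differed by -1.02 in spindles.

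Matrix and basement membrane genes gave 3 calls of 35, all higher, with a median of 0.07, where 0.514% of all genes were called higher. Beside VCAN, COL12A1, a collagen that decorates fibrils, had 13.6 and 12.2 FPKM in WT and 22.9 and 21.3 FPKM in STAU1-KO (0.73, limma adjusted p = 0.0427). COL13A1, a transmembrane collagen, had 1.38 and 1.59 FPKM in WT and 3.47 and 3.36 FPKM in STAU1-KO (0.83, limma adjusted p = 0.0498). COL13A1 did not pass with a pseudocount of 0.5 or 0.1 or with equal coding sums (limma adjusted p = 0.0503, 0.0528 and 0.0504). Of 32 integrins and adhesion receptors, SEMA3C was the 1 called. With limma-voom, 15 of the 35 matrix genes were higher and 2 lower, and 11 of the 32 adhesion genes were higher and 2 lower, against 11.7% and 5.23% of all genes. Among these, COL7A1 and NRP1 entered through STAU1-KO alone, and LAMA3 and PVRL4 through WT alone.

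Genes that the ERK kinase pathway induces, several of which restrain it, gave 5 rises and 1 fall among 26 tested, with a median of 0.08. Of all genes, 0.514% rose and 0.69% fell by limma. With limma-voom, 9 of the 26 were higher and 3 lower, against 11.7% and 5.23% of all genes. DUSP6, a phosphatase that inactivates ERK, had 18.0 and 19.1 FPKM in WT and 38.5 and 39.7 FPKM in STAU1-KO (limma adjusted p = 0.0316). SPRY4, an inhibitor of receptor tyrosine kinase signalling, had 11.4 and 13.6 FPKM in WT and 26.4 and 25.7 FPKM in STAU1-KO (1.01, limma adjusted p = 0.0369). Both about doubled between the group means. ETV1 had 1.28 and 1.09 FPKM in WT and 3.56 and 3.76 FPKM in STAU1-KO, ETV5 of the same family rose by 0.47, and EPHA4, an ephrin receptor, by 0.96 (limma adjusted p = 0.0492 and 0.0477). With a pseudocount of 0.1, ETV5 and EPHA4 no longer passed (limma adjusted p = 0.0528 and 0.0525). MYC fell, from 96.3 and 102 FPKM to 59.8 and 60.2 FPKM (-0.71, limma adjusted p = 0.0316), and the authors' deposited table does not call it (adjusted p = 0.589).

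The Wnt list gave 1 rise (TNIK) and 2 falls (MYC and DKK1) of 31 by limma, with a median of 0.07. Of all genes, 0.514% rose and 0.69% fell by limma. With limma-voom, 8 of the 31 were higher and 3 lower, against 11.7% and 5.23% of all genes. SP5 of this list entered through STAU1-KO alone. DKK1, a secreted Wnt inhibitor, had 51.4 and 53.02 FPKM in WT and 30.6 and 32.8 FPKM in STAU1-KO (-0.70, limma adjusted p = 0.0349). WNT16, a ligand, had 18.9 and 24.9 FPKM in WT and 43.4 and 42.4 FPKM in STAU1-KO. The groups of WNT16 did not overlap, but the difference of 0.95 did not pass (limma adjusted p = 0.0635). Growth factors and their receptors gave 2 rises (FGF9 and PDGFC) and 2 falls (EPHA1 and MET) of 36 by limma, where 0.514% and 0.69% of all genes rose and fell. With limma-voom, 9 of the 36 were higher and 5 lower, against 11.7% and 5.23% of all genes. FGF9 entered through STAU1-KO alone and so had to be higher there. EPHA1, an ephrin receptor of epithelia, had 7.08 and 6.83 FPKM in WT and 3.26 and 3.06 FPKM in STAU1-KO (-0.94, limma adjusted p = 0.0316).

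Since the cells were collected in mitosis, the machinery of division was read as a group. Of 37 mitotic kinases, cyclins and spindle motors, 1 rose and none fell, and 35 of the 37 had a difference above 0. The median was 0.27, and in 28 of the 37 both STAU1-KO libraries lay above both WT libraries, against 26.7% of all genes. With limma-voom, 27 of the 37 were higher, against 11.7% of all genes, and none lower. TOP2A, the topoisomerase that untangles sister chromatids, had 31.2 and 30.5 FPKM in WT and 47.1 and 47.4 FPKM in STAU1-KO (0.60, SE 0.05, limma adjusted p = 0.0346). CDC25C, the phosphatase that activates CDK1, and UBE2C, the ubiquitin carrier of the anaphase-promoting complex, differed by 0.63 and 0.60 and did not pass (limma adjusted p = 0.0609 and 0.0658). Of 44 checkpoint and kinetochore genes none was called by limma (12 at an unadjusted p under 0.05, where 24.7% of all genes were) and 15 were higher and none lower with limma-voom. Their median was 0.11, and CENPF, a kinetochore protein, had 49.0 and 42.4 FPKM in WT and 74.1 and 71.4 FPKM in STAU1-KO (0.66, limma adjusted p = 0.0581). Of 47 replication genes none was called by limma (11 at an unadjusted p under 0.05, a share close to that of all genes), limma-voom called 2 higher and 3 lower, and the median was -0.10. TUBA4A, an alpha tubulin, was the 1 called of 14 tubulins, with 14.5 and 14.2 FPKM in WT and 8.21 and 8.25 FPKM in STAU1-KO. The authors' deposited table does not call TUBA4A (adjusted p = 0.299), and with limma-voom 4 of the 14 tubulins were higher and 1 lower.

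The messenger RNAs of ribosomal proteins and of the respiratory chain were shifted slightly downward as groups, with no call by limma. An unadjusted p under 0.05 was reached by 47 of 80 ribosomal protein genes and 23 of 76 respiratory chain genes, where 24.7% of all genes reached it. With limma-voom 28 and 7 were lower and none higher, against 5.23% of all genes lower. In 77 of 80 ribosomal protein genes both STAU1-KO libraries lay below both WT libraries, and in none above, where all genes gave 31.3% and 26.7%. Their differences ran from -0.41 to -0.10 with a median of -0.26. Without WT replicate 1 the median was -0.16 for ribosomal proteins and -0.08 for the respiratory chain, and without WT replicate 2 it was -0.37 and -0.21. RPL18, of the large subunit, differed by -0.36. Of 76 nuclear genes of the respiratory chain, 46 lay lower without overlap and 2 higher, with a median of -0.15, and UQCRFS1, the iron-sulphur subunit of complex III, differed by -0.39. With coding sums set equal, the medians were -0.17 for ribosomal proteins and -0.06 for the respiratory chain. In the spindle libraries both groups lay the other way, with medians of 0.49 and 0.74.

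These groups differ in transcript length and level, which moved with the difference across all coding genes. The median transcript of the ribosomal protein list was 1784 nucleotides and that of the respiratory chain 1404, against 3480 for all coding genes and 3475 for the mitotic list. With coding genes divided into 5 equal bins, the median difference in input went from -0.10 in the bin with the shortest transcripts to 0.03 in the bin with the longest. Of the called genes, 2 rose and 28 fell in the shortest bin, and 19 rose and 11 fell in the longest. By level over the 4 libraries, the median went from 0.03 in the lowest bin to -0.10 in the highest. The part of length and level in the shifts of the lists was not tested. The epithelial list had a median transcript of 3793 nucleotides, longer than that of all coding genes, and a median WT level of 13.7 FPKM, above the 7.61 FPKM of all coding genes.

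**Figure D3:**
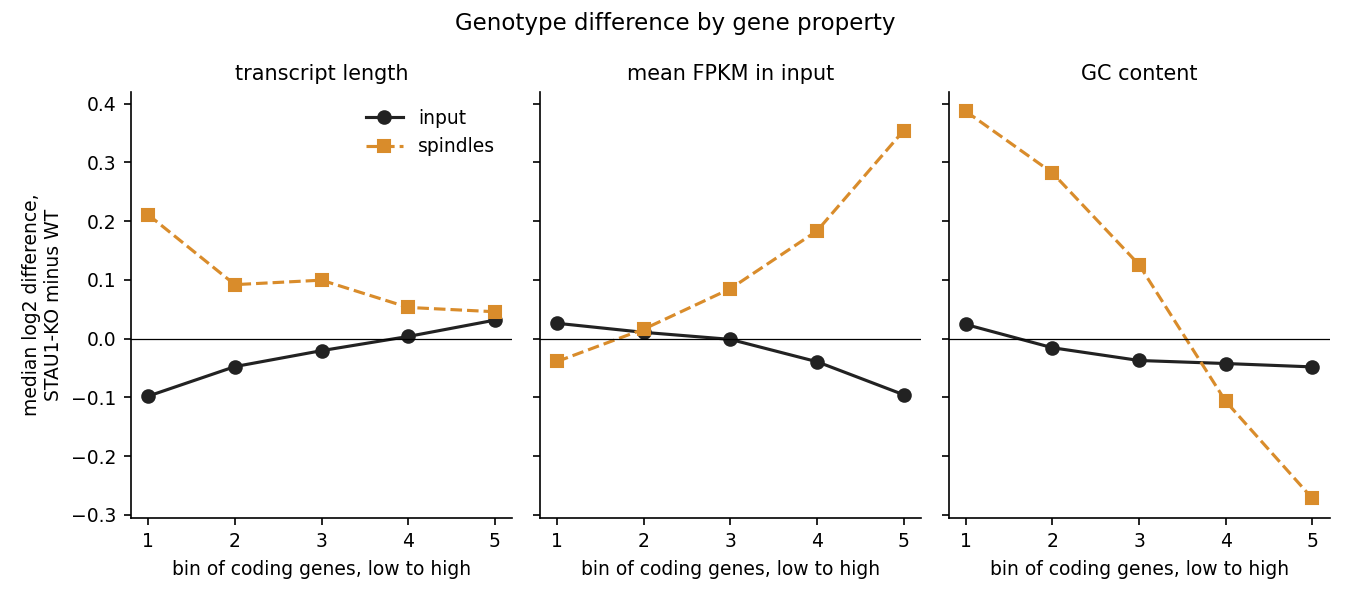
Median log2 difference between STAU1-KO and WT (vertical axis) in 5 equal bins of coding genes ordered by transcript length, by mean FPKM in input and by GC content (horizontal axes, low to high), with circles for input and squares for spindle libraries. In input the medians stay between -0.10 and 0.03, while in spindles they run from 0.39 in the bin with the lowest GC content to -0.27 in the bin with the highest.

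Several lists that bear on the known roles of Staufen1 or on stress held no called gene, where 1.2% of all genes were called, so that lists of this size would hold few or none at that share. None was called among 4 transcripts reported as targets of Staufen-mediated decay, among 19 transcripts sensitive to nonsense-mediated decay (median -0.02), 32 p53 targets (median 0.01), 34 genes of ATF4 and the unfolded protein response (median -0.02) or 39 histone genes (median -0.09), by limma or in the authors' deposited table. In the order given, 1, 3, 9, 8 and 1 of their members had an unadjusted p under 0.05, where 24.7% of all genes had, and limma-voom called 0, 2, 6, 7 and 0. ARF1, the founding decay target, had 141 and 122 FPKM in WT and 109 and 107 FPKM in STAU1-KO, which is a difference of -0.28 with a limma adjusted p of 0.155. Of 29 interferon response genes, ISG15, a ubiquitin-like modifier, was the 1 called, from 101 and 97.9 FPKM to 60.0 and 55.8 FPKM (-0.77, limma adjusted p = 0.0316), and the authors' deposited table does not call it (adjusted p = 0.475). Of 33 genes of glycolysis and hypoxia, HK2, a hexokinase, was the 1 called (-0.65, limma adjusted p = 0.0346), and the authors' deposited table does not call it (adjusted p = 0.379). With limma-voom, 9 of the 33 were higher and 1 lower, against 11.7% and 5.23% of all genes. The 29 interferon genes had 2 higher and 4 lower with limma-voom, and BST2 and OASL of this list entered through WT alone. In the glycolysis list SLC2A3 entered through STAU1-KO alone and EGLN3 through WT alone. Of 16 genes of MHC class I presentation none was called by limma (3 at an unadjusted p under 0.05), limma-voom called 6 higher, where it called 11.7% of all genes higher, and 10 lay higher without overlap, where 26.7% of all genes did. NLRC5 of this list was under 1 FPKM in both WT libraries, entered through STAU1-KO alone and so had to lie higher there.

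**Figure D4:**
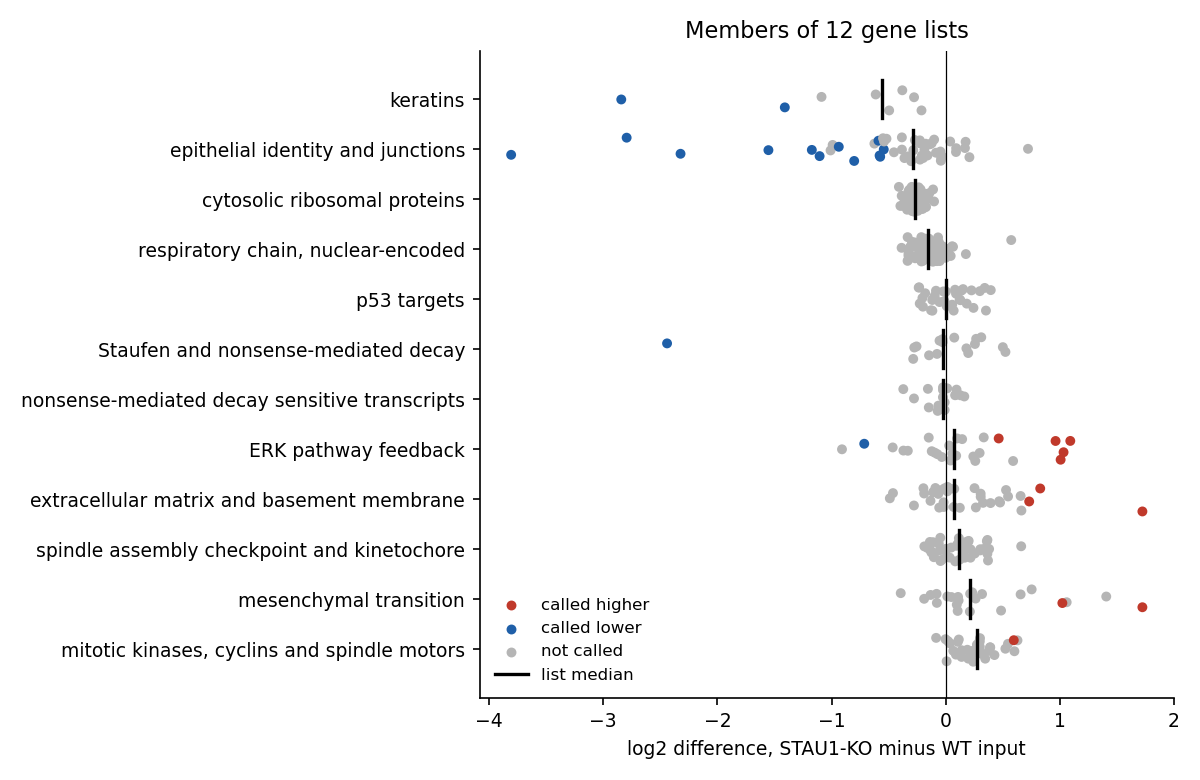
Log2 difference between STAU1-KO and WT input (horizontal axis) for each tested member of 12 gene lists (rows), with called genes in red or blue and the list median as a black bar. The medians run from -0.55 for keratins and -0.28 for epithelial genes to 0.27 for the mitotic list.

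Noncoding genes made up 33 of the calls, and many rested on few reads. Counted over the 4 libraries, 15 of the 33 had fewer than 50 reads, where none of the 138 called coding genes had fewer than 104. The microRNA gene MIR141 (chromosome 12) had 5 and 5 reads in WT and 3 and 4 in STAU1-KO. RNU7-80P, RNU6-312P, RNU7-127P, RNU6-28P and MIR1180, the leading higher noncoding genes, are listed at 0 in both WT libraries and had between 2 and 7 reads in each STAU1-KO library. They entered through STAU1-KO alone and so had to be higher there. RNU6-781P had 2 reads in each WT library, is listed at 0 in STAU1-KO and entered through WT alone. Of these 7 genes, none passed with a pseudocount of 0.1. RN7SL3, a copy of the RNA of the signal recognition particle, had 5756 and 5300 FPKM in WT and 2748 and 2533 FPKM in STAU1-KO (-1.07, limma adjusted p = 0.0461). It did not pass with a pseudocount of 0.1 (limma adjusted p = 0.0522), and the authors' deposited table does not call it (adjusted p = 0.0818). Its near-identical copy RN7SL1 had 78476 and 75558 FPKM in WT and 55885 and 52125 FPKM in STAU1-KO and was not called (-0.51, limma adjusted p = 0.272), and reads may be divided between such copies. RNU1-120P fell with 20 and 17 reads in WT and 9 and 11 in STAU1-KO, and the antisense gene FAM222A-AS1 with 57 and 66 reads in WT and 42 and 53 in the more deeply sequenced STAU1-KO. The authors' deposited table calls neither (adjusted p = 0.666 and 0.470).

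The spindle libraries held the same genotype difference in RNA that the input test did not use. Of the 171 called genes, 142 (83.0%) differed in the same direction in spindles, where 56% of all genes tested did. In 115 (67.3%) the spindle libraries of the genotypes did not overlap in that direction, where 35.6% of all genes did. Among called coding genes the direction was kept by 124 of 138 (89.9%), among noncoding ones by 18 of 33 (54.5%), and among the 87 genes that the authors' deposited table also calls by 82 (94.3%), though that table was itself fitted with the spindle libraries. A separate limma fit of the 4 spindle libraries called no gene, with 3300 genes at an unadjusted p under 0.05 and a smallest adjusted p of 0.125. The standard deviation of the difference between replicates was 0.639 in WT spindles and 0.355 in WT input.

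**Figure D5:**
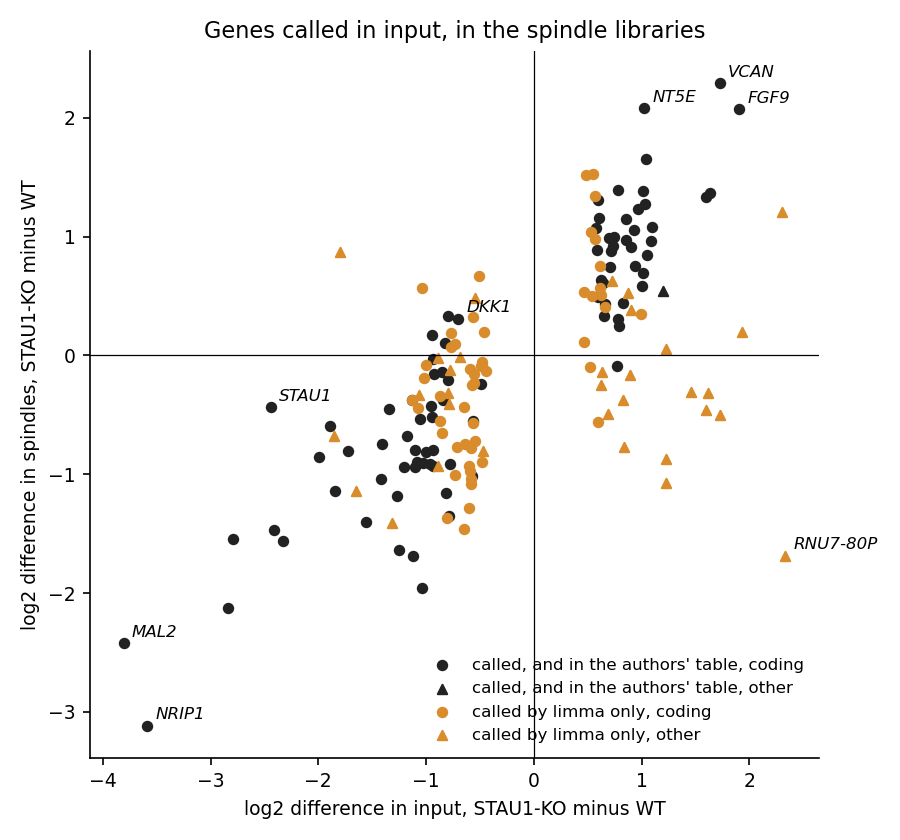
Log2 difference between STAU1-KO and WT in spindles (vertical axis) against that in input (horizontal axis) for the 171 genes called in input, in black where the authors' deposited table also calls them, with triangles for noncoding genes. Most points lie to the lower left and upper right of 0 (142 of 171), and the noncoding calls spread to both sides of 0 in spindles.

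In spindles NRIP1 had 8.36 and 9.33 FPKM in WT and 0.112 and 0.157 FPKM in STAU1-KO. MAL2 had 5.59 and 8.70 FPKM in WT and 0.594 and 0.401 FPKM in STAU1-KO, and GRHL2 had 8.60 and 9.13 FPKM in WT and 2.60 and 2.84 FPKM in STAU1-KO. In each of these the spindle libraries of the genotypes did not overlap. Among higher genes, VCAN had 6.55 and 5.85 FPKM in WT and 34.2 and 34.3 FPKM in STAU1-KO, and NT5E had 2.76 and 3.80 FPKM in WT and 17.4 and 16.5 FPKM in STAU1-KO. TOP2A had 21.0 and 20.5 FPKM in WT and 54.9 and 50.6 FPKM in STAU1-KO. Their spindle differences of 2.29, 2.08 and 1.31 were in the direction of input. CLDN7 and RAB25 differed little in spindles (-0.03 and -0.11), while ST14, PKP3 and LLGL2 differed by -1.37, -1.04 and -1.02.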

How the data were processed

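RNA of 8 libraries was measured, and the 4 input libraries were compared, STAU1-KO against WT with 2 libraries each. Per the submitters' processing notes, FastQC, TopHat, featureCounts and DESeq2 were used with GRCh37, and versions are not given in the sources used here. The authors deposited FPKM per library, scaled by size factors as the values show, and, per gene, GC content as a percent. The authors' deposited comparison table gives the mean normalised signal of a gene over the libraries, the log2 fold change and its SE, a test score and p-values, raw and adjusted. No deposited TPM column was used. Transcript lengths are those of the deposited table.

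Differences were tested with limma 3.58.1 in R 4.3.3 on log2(FPKM + 1), with a trend in the prior variance, 2 residual and 2.55 prior degrees of freedom, with two-sided p-values adjusted after Benjamini and Hochberg over 14196 genes. The procedure was also run on simulated reads, with the same spread setting for all genes and with genes of few reads left out. That run is no check of calls that rest on few reads. Whole reads were recovered from FPKM and the base mean (100% within 0.01 of a whole number) and served for depth and for 1 alternative. Genes with few reads have imprecise FPKM. The difference of the genotype change between spindle and input was tested with limma over all 8 libraries.

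The genes and the 39 lists were chosen with earlier results of these data known. Genes named were STAU1, STAU2, in each direction 10 coding and 5 other called genes without overlap of libraries, by size of difference, and at most 4 members of a list by smallest p. Clone-based names were skipped, further called members of the epithelial and ERK lists are named because they were called, and B2M and CDC6 were named by their lists. Some genes that the rule takes are not reported here. Libraries of the same replicate number did not deviate together across genes (correlation of deviations 0.03), and the labels do not say whether they are paired. Promoters came from RefSeq (GRCh38.p14) by symbol. Alternatives were 2 other pseudocounts, 2 other filters, 2 other scalings, coding genes alone, all 8 libraries, a replicate block, a robust prior, limma-voom on recovered reads and leaving out each input library.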

Additional observations from a re-analysis of the deposited data

Results flagged for a closer look

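The genotype difference was itself different in spindles and in input for 6 of the named genes, by a limma test of the difference of the changes over all 8 libraries, adjusted over 14196 genes, of which 157 passed. Of the 171 genes called in input, 5 passed. For STAU1 the change was -2.44 in input and -0.44 in spindles, a difference of 2.01 (SE 0.23, limma adjusted p = 0.0429), so that the 2 libraries labelled STAU1-KO spindle lay close to WT spindles. For DKK1 the changes were -0.70 and 0.31, a difference of 1.01 (SE 0.15, limma adjusted p = 0.0486). For the MHC class I subunit gene B2M they were 0.15 and 2.73, a difference of 2.59 (limma adjusted p = 0.0429), with 7.89 and 13.2 FPKM in WT spindles and 78.1 and 69.7 FPKM in STAU1-KO spindles. For the replication gene CDC6 they were -0.43 and 0.56, a difference of 0.99 (limma adjusted p = 0.0486). The annotated snRNA genes RNU6-28P and RNU7-80P differed by -2.23 and -4.02 (limma adjusted p = 0.0428 and 0.0483), and both had at most 4 reads in any input library. Both are listed at 0 in both WT input libraries and entered through STAU1-KO input alone. Their change in input had to be positive and is part of the tested difference, so that for these genes the test is no support. The replicate spread of WT spindles, a standard deviation of 0.639, enters all 6 tests, and its part was not tested.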

How the results depend on the processing

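The number of called genes was 171 and within 1.5 times of it with other pseudocounts, scalings and a robust prior (124 to 206). It was 81 with no filter on low values, 806 at a mean FPKM of at least 5, 1721 with coding genes only, 32 with all 8 libraries and 2403 with limma-voom on recovered reads, of which 1661 were higher. It ranged from 0 to 31 when 1 input library was left out, where the lone library is assumed to vary like the other genotype. In the order of those 5 settings from no filter to limma-voom, called list members were 27, 119, 238, 13 and 302 (main 41, 0 to 13 without 1 library), and epithelial genes called lower 7, 20, 25, 3 and 23 (main 12, 0 to 3 without 1 library). Of the called genes, 71.1% kept their direction in spindles at a mean FPKM of at least 5, 72.3% with coding genes only, 90.6% with all 8 libraries and 74.7% with limma-voom, and 83.9% to 100% without 1 WT library. The cause was not tested.

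The replicate block left 2 genes called, both epithelial list members, with 100% in the same direction in spindles. STAU1 stayed at -2.44 with the block but its limma adjusted p was 0.0596, and without 1 library its difference lay between -2.52 and -2.36, past the threshold only without 1 WT library. The differences are the same with and without the block, so a call lost under it is not a smaller difference. Whether libraries of the same number were prepared together is not known from the labels. For 76 other named genes no difference changed sign in 1107 values, and 362 of these lost a call. With the other filters, coding genes alone, all 8 libraries, the block or the robust prior, a gene keeps the difference of the main fit and could not change sign. Nor could a gene without overlap of libraries change sign when 1 library was left out. For these values the lack of a sign change is no check. Of the 33 noncoding calls, 15 rested on fewer than 50 reads over the 4 libraries.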
